A study of Mus musculus with 28 samples.

Results

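Insm1, Tbata, Mab21l1, Cyp11a1, Rlbp1, Kctd4, Tnr, Susd5 and Scrg1 are 9 genes that were selected on these same arrays for large differences between mouse medulloblastoma and mouse glioma, 9 of 18193 genes with a probe set of their own. Medulloblastoma is a tumour of the cerebellum that, in its granule cell form, is made of cells like the precursors of cerebellar granule neurons. Glioma is a tumour with features of glial cells, in many cases of the precursors of oligodendrocytes, the cells that make myelin. The 4 genes high in the medulloblastomas and the 5 high in the gliomas are described here across all 28 arrays, with each tumour type set against normal brain and the tumours of different Rictor genotypes set against each other.

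Gene expression was measured on 28 Affymetrix Mouse 430 2.0 arrays, where each transcript is read by 1 or more sets of short probes, and the values are scaled intensities on a linear scale. The 10 medulloblastomas were 5 with the genotype hGFAP-Cre::p53-/-; Rictor-/-, 2 that were Rictor+/- and 3 in which Rictor was not targeted. The 6 gliomas were 1 Rictor-/-, 4 Rictor+/- and 1 with Rictor not targeted, and the 12 normal brain tissues were 5 Rictor-/-, 5 Rictor+/-, 1 with Rictor not targeted and 1 wild type. All mice but the wild type therefore carried hGFAP-Cre and targeted p53 alleles. With 1 exception, normal brain here is thus tissue in which the cells reached by Cre had lost p53. The hGFAP promoter drives Cre in neural progenitors and in glia derived from them, so other cells of the brain keep the targeted alleles. Rictor is an essential subunit of mTOR complex 2, a kinase complex that acts on AKT. The labels give no age, do not say which region of the brain the normal tissue came from or whether each array is a separate animal, and state a tumour cell content of 70% or more for the tumour pieces.

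The median intensity of an array lay between 18.8 and 27.8. For actin, probe sets at the 3' end over those at the 5' end, a ratio that rises with RNA degradation, gave 1.49 to 4.38 in medulloblastoma, 1.73 to 2.78 in glioma and 1.99 to 6.21 in normal brain. The defining markers of the tumour types went with their labels. The summed intensity of 8 granule neuron precursor markers was 7966 to 14975 in medulloblastoma, 984 to 4393 in glioma and 909.8 to 5289 in normal brain, and that of 8 oligodendrocyte precursor markers was 852 to 4697 in medulloblastoma, 10103 to 17509 in glioma and 724 to 2938 in normal brain. No marker value was at 0. Rictor itself measured 68.8 to 235.8 in Rictor-/- medulloblastoma, against 261 to 277 in Rictor+/- and 223 to 273 in untargeted medulloblastoma. In glioma it was 144 in the Rictor-/- tumour, against 193 to 316 in Rictor+/- tumours and 376 in the untargeted one. In normal brain it was 213 to 444 in Rictor-/- tissue, against 251 to 389 in Rictor+/- tissue, 272 in the untargeted and 580.0 in the wild type. The Rictor-/- medulloblastoma C6, at 235.8, lay within the range of the untargeted ones, and the Rictor-/- and Rictor+/- normal brains overlapped. Whether the probe set lies in the deleted part is not known here, so genotypes are those of the labels. In bulk tissue, fewer cells of a type and less RNA per cell cannot be told apart. This holds for every level given here.

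Of the 9 genes, 4 were higher in medulloblastoma. On the scale of log2(intensity + 6.3), where 6.3 is the 25th percentile of the table, medulloblastoma minus glioma was 5.82 for Insm1, 5.04 for Tbata, 4.82 for Mab21l1 and 4.66 for Cyp11a1. Rlbp1, Kctd4, Tnr, Susd5 and Scrg1 had differences of -4.72, -4.41, -4.24, -4.21 and -4.0. These differences chose the genes, so they are given as a description with no test. The same tumours enter each comparison with normal brain below, so the p-values of the 9 genes there are not independent of that choice. The gliomas lay near the 25th percentile for Tbata and Cyp11a1, and so did some of them for Insm1 and Mab21l1. The size of these differences therefore moves with the constant added. Adding 16 gave 4.33 for Tbata, 3.98 for Cyp11a1 and 5.24 for Insm1, and adding 1 gave 5.74 for Tbata and 5.32 for Cyp11a1. Over the 13931 genes compared, 13.6% passed the test as higher in medulloblastoma and 14.8% as lower. By the brightest probe sets, no medulloblastoma overlapped a glioma for 8 of the 9 genes. Over all genes, 2.63% had every medulloblastoma above every glioma and 3.56% every medulloblastoma below. The gap differed widely: the lowest tumour of the high type stood 15.0-fold above the highest tumour of the other type for Insm1, 8.17-fold for Mab21l1, 6.28-fold for Scrg1, 5.53-fold for Tbata, 4.84-fold for Susd5 and 4.0-fold for Tnr, but 1.52-fold for Kctd4 and 1.46-fold for Cyp11a1. Rlbp1 was the exception, with 1 medulloblastoma, C4, above 1 glioma, B3. By its other probe set Kctd4 overlapped as well, with medulloblastoma C1 at 139.8 above glioma B2 at 127.7. The other probe sets of Cyp11a1, too dim to be tested, also overlapped between the tumour types.

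**Figure D1:**
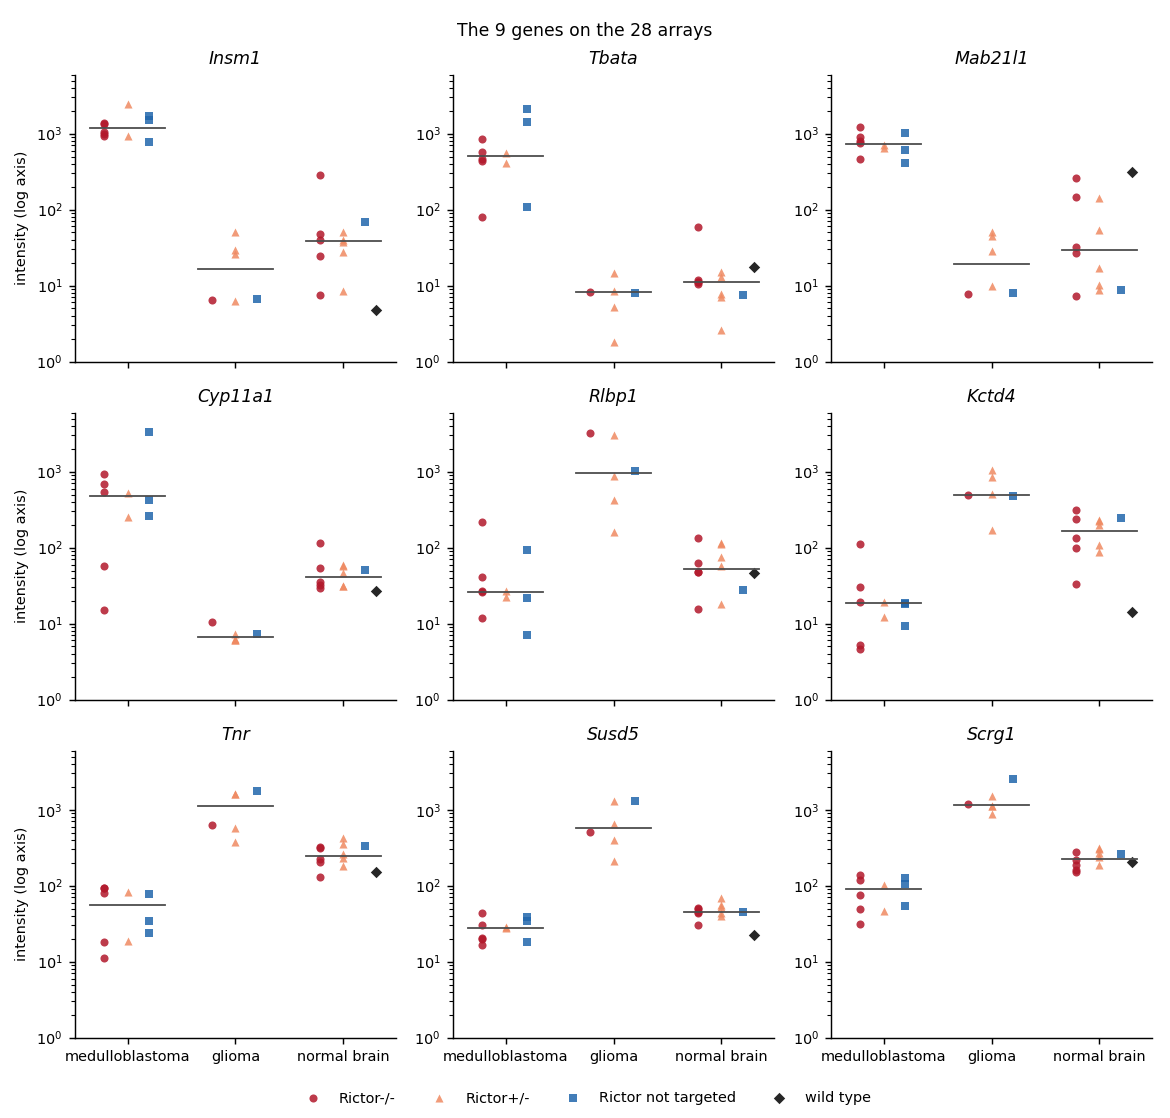
Intensity (log axis) of the 9 genes on each array, by tissue, with medulloblastoma (n = 10) left, glioma (n = 6) in the middle and normal brain (n = 12) right. Each point is 1 array, its colour and shape give the Rictor genotype and the line is the median. Insm1, Tbata, Mab21l1 and Cyp11a1 were high in medulloblastoma and the other 5 genes in glioma.

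Insm1 encodes a zinc finger repressor that acts with the histone demethylase Kdm1a (LSD1) and its CoREST partners in newly formed neurons and endocrine cells. Its intensity in the 10 medulloblastomas was 765.4 at the lowest, 1197 at the median and 2444 at the highest. In the gliomas it ran between 6.3 and 50.9 with a median of 16.3, and in normal brain between 4.8 and 287.0 with a median of 38.8. Every medulloblastoma stood above every normal brain, and the gliomas lay within the range of normal brain. Medulloblastoma minus normal brain was 4.81 ± 0.41 (SE) on the log2 scale (limma, two-sided, Benjamini-Hochberg adjusted p = 2.228e-10), and glioma minus normal brain was -1.01 ± 0.47 (limma, adjusted p = 0.07216), which did not pass the threshold of 0.05. That glioma difference did pass without glioma B7 (-1.26, limma adjusted p = 0.02981), without normal brain B2 (-1.23, adjusted p = 0.0247), without normal brain C5 (-1.13, adjusted p = 0.03432) and with array weights (-1.15, adjusted p = 0.03552). Over all 44 alternatives it ran between -1.37 and -0.02 (limma adjusted p between 0.007749 and 0.9793). The highest normal brain was C2, a Rictor-/- tissue, and the same array was the highest normal brain for the proliferation marker Mki67 at 274.8 and for the granule precursor gene Atoh1 at 176.2; the part of those cells in the Insm1 value was not tested. The other probe set of Insm1 gave 5.68 for medulloblastoma minus glioma.

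Mab21l1 belongs to a family named after a Caenorhabditis elegans cell fate gene and is needed for eye development in mice. The medulloblastomas held 409.2 at the lowest, 733.9 at the median and 1219 at the highest. Gliomas held 7.7 to 50.1 with a median of 19.05, and normal brains 7.3 to 309.4 with a median of 29.65. All medulloblastomas again exceeded all normal brains, yet the normal brains themselves spread 42.4-fold. The difference between medulloblastoma and normal brain was 4.27 ± 0.48 (SE, limma adjusted p = 2.034e-08) and that between glioma and normal brain -0.55 ± 0.55 (limma adjusted p = 0.4126), not passing. Insm1 and Mab21l1 were the steadiest of the 4 among the medulloblastomas, with a highest-to-lowest ratio of 3.19 for Insm1 and 2.98 for Mab21l1. Its family member Mab21l2 had a mean intensity of 107 ± 110.1 in medulloblastoma, 9.55 ± 5.66 in glioma and 11.2 ± 14.8 in normal brain (SD, n = 10, 6 and 12). Mab21l2 rose by 2.25 ± 0.49 in medulloblastoma relative to normal brain (SE, limma adjusted p = 0.0002831) and did not pass in glioma (-0.20 ± 0.56, limma adjusted p = 0.7876). Within the 14 arrays of the title prefix YZ, Mab21l2 in medulloblastoma against normal brain was 1.84 and did not pass (limma adjusted p = 0.1165).

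Tbata is named for the thymus, brain and testis in which it is found. Among the medulloblastomas its lowest value was 80.2, its median 514 and its highest 2120. The gliomas lay between 1.8 and 14.5 (median 8.15) and the normal brains between 2.6 and 58.6 (median 11.05). The lowest medulloblastomas, C6 at 80.2 and A6 at 108.1, still stood above the highest normal brain, which was C2. Against normal brain, Tbata rose by 4.66 ± 0.44 in medulloblastoma (SE, limma adjusted p = 1.155e-09) and differed by -0.38 ± 0.50 in glioma (limma adjusted p = 0.5438), which did not pass. Its other 3 probe sets gave 5.59, 5.73 and 4.04 for medulloblastoma minus glioma. The dimmest of these passed as lower in glioma than in normal brain (-1.07, limma adjusted p = 0.03579), which the other probe sets of Tbata did not.

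Cyp11a1 encodes the mitochondrial side-chain cleavage enzyme that turns cholesterol into pregnenolone, the first step of steroid hormone synthesis. It was the most uneven of the 4. The Rictor-/- medulloblastomas C1, C2, C4, C5 and C6 had intensities of 678.9, 941.6, 56.7, 534.9 and 15.2. The Rictor+/- medulloblastomas B4 and B6 had 250.3 and 531.0, and those without a targeted Rictor allele, A3, A5 and A6, had 3282.2, 262.2 and 424.9. The highest tumour, A3, was 216-fold above the lowest, C6, and C4 lay within the range of normal brain, C6 below it and the other 8 medulloblastomas above it. In the gliomas the values were 6.0 to 10.4 (median 6.75), 3 of them at or under the 25th percentile of the table, and in normal brain they were 27.1 to 114.1 (median 40.95). Every glioma was below every normal brain. Cyp11a1 rose by 2.59 ± 0.54 in medulloblastoma relative to normal brain (SE, limma adjusted p = 0.0001686) and fell in glioma, with a difference of -2.07 ± 0.62 (limma adjusted p = 0.006434). The glioma difference kept its size and did not pass within the title prefix YZ2 (-1.99, limma adjusted p = 0.3039, 2 gliomas) or within the Rictor+/- arrays (-1.98, limma adjusted p = 0.06475). Another Cyp11a1 probe set that was too dim to be tested measured 0.6 to 143.2 in medulloblastoma, again highest in A3, 0.2 to 0.9 in glioma and 0.5 to 8.4 in normal brain. The dimmest measured 0.4 to 7.0, 0.3 to 4.5 and 0.4 to 5.4 in medulloblastoma, glioma and normal brain, with all 3 tissues overlapping.

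The 4 medulloblastoma genes did not mark the same tumours as high. By the brightest probe sets, A3 had the highest Tbata and Cyp11a1 of the 10 medulloblastomas and the lowest Insm1 (765.4) and Mab21l1 (409.2). By the other probe sets A3 was not the lowest: Insm1 was 1068.9 there and lowest in C4 at 727.7, and Mab21l1 was 255.6 there and lowest in C5 at 228.8. The dimmest Tbata probe set was highest in C2, at 389.2, and A3 had 238.0. A3 also had the lowest Mki67, 478.8 against 684.2 to 2007.3 in the other 9, and the lowest sum of 5 cell cycle genes, 2939. C6, lowest in Tbata and Cyp11a1, had an Insm1 value of 1342.1 and a Mab21l1 value of 811.8, both above the medians of the medulloblastomas. In C6 Atoh1 was 37.5, the lowest of the medulloblastomas, and Gabra6, a gene of mature cerebellar granule neurons, was 1324.3, a level passed among the tumours only in medulloblastoma B6 at 1637.5. In B6 Tbata was 409.6 and Cyp11a1 531.0. These arrays were singled out after their values were seen, and the part of proliferation or of granule neurons in these differences was not tested.

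**Figure D2:**
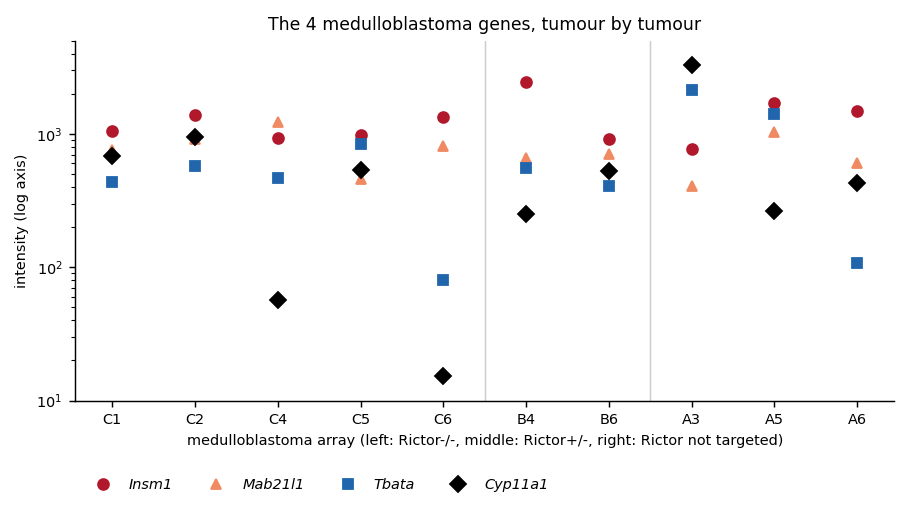
Intensity (log axis) of Insm1, Mab21l1, Tbata and Cyp11a1 in each of the 10 medulloblastomas, ordered by Rictor genotype from Rictor-/- at the left to tumours without a targeted allele at the right. Insm1 and Mab21l1 stayed within about 3-fold (3.19 and 2.98), while Cyp11a1 ran between 15.2 in C6 and 3282.2 in A3.

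RefSeq promoter windows on GRCm38.p6 were held for 5 of the 9 genes. Those of Tbata and of Cyp11a1 at its annotated gene start are shown because E-boxes, written CANNTG, are the sites of basic helix-loop-helix factors such as Atoh1, Neurod1 and Nhlh2, which are high in the same tumours. Capitals mark E-boxes and SOX motifs (ACAANG, both strands), 5' to 3'.
Tbata (chr10:61171714-61172013, plus strand): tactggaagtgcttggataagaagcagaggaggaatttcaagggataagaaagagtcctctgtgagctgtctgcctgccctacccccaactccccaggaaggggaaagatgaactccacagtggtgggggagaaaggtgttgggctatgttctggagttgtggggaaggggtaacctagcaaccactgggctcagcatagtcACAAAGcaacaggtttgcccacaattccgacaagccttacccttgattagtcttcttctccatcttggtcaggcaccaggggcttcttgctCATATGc
Cyp11a1 (chr9:57997774-57998073, plus strand): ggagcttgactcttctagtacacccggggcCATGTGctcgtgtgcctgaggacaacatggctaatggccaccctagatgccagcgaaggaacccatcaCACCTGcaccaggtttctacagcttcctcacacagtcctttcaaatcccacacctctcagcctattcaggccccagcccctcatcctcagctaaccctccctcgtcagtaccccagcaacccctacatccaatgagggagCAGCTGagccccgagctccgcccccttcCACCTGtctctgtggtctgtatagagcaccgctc
The Cyp11a1 window held 4 E-boxes, 1 of them CAGCTG, and the Tbata window 1 E-box and 1 SOX motif. A window at another Cyp11a1 start held 0 of either. E-boxes occur in 72.3% of the 32851 mouse windows of this length, CAGCTG in 16.3% and ACAANG in 41.2%, so such a match is a description of the letters. The Gli motif TGGGTGGTC (0.253% of windows) and the half-site AAGGTCA of the steroidogenic factor SF-1 (4.72%) had 0 matches on either strand in the windows of Tbata and Cyp11a1.

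Scrg1, first found as a transcript raised in scrapie-infected mouse brain, encodes a small secreted protein. Among the genes high in glioma it was the most even. The 6 gliomas ran between 866.1 and 2560.5 with a median of 1163. The medulloblastomas ran between 31.6 and 137.9 with a median of 89.3, and normal brain between 153.0 and 309.8 with a median of 228. No array of any tissue fell within the range of another tissue. Relative to normal brain, Scrg1 rose by 2.42 ± 0.25 in glioma (SE, limma adjusted p = 2.309e-08), and in medulloblastoma it fell, with a difference of -1.58 ± 0.22 (SE, limma adjusted p = 8.225e-07).

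Tnr encodes tenascin-R, an extracellular matrix glycoprotein made by the oligodendrocyte lineage and by some neurons, and found in the perineuronal nets around neurons. In the gliomas B1, B2, B3 and B7 (Rictor+/-) it measured 374.6, 580.3, 1590.1 and 1621.9, in C3 (Rictor-/-) 628.3 and in the untargeted A4 1772.2. In medulloblastoma it was 11.2 to 93.6 (median 55.85) and in normal brain 130.6 to 429.2 (median 244.8). Medulloblastomas lay entirely below normal brain, while the lowest glioma was within the range of normal brain. The glioma difference from normal brain was 1.77 ± 0.40 (SE, limma adjusted p = 0.0005943) and the medulloblastoma difference -2.46 ± 0.35 (limma adjusted p = 1.068e-06). Both passed, in opposite directions, but Tnr was chosen for the gap between these same tumours, which favours such a result. Rlbp1 and Tnr had only 1 probe set each, as did Scrg1.

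Kctd4 belongs to the KCTD family, proteins with a BTB domain, several of which are adaptors of ubiquitin ligases. In the gliomas B1, B2, B3 and B7 it measured 511.7, 169.1, 1042.3 and 846.3, in C3 487.9 and in A4 481.1. Among the medulloblastomas 9 lay between 4.7 and 30.6, and C1 stood apart at 110.9. Normal brain spanned 14.4 to 313.0 with a median of 167 and overlapped both tumour types. Kctd4 rose by 1.71 ± 0.46 in glioma (SE, limma adjusted p = 0.002906) and fell in medulloblastoma, with a difference of -2.69 ± 0.41 from normal brain (limma adjusted p = 2.229e-06). Its other probe set gave -2.61 for medulloblastoma minus normal brain and 1.03 for glioma minus normal brain, the second without passing (limma adjusted p = 0.0722). Within the title prefix YZ the medulloblastoma difference was -1.56 and did not pass (limma adjusted p = 0.1125), and within YZ2 it was -3.52 (limma adjusted p = 2.287e-06). The prefix YZ holds C1 and also the normal brains B2 and C5, where Kctd4 was 87.0 and 33.6. The part of these arrays in the difference between prefixes was not tested.

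Susd5 encodes a membrane protein with a sushi domain. Gliomas held 211.2 to 1315.4 with a median of 581.5, medulloblastomas 16.7 to 43.6 with a median of 28 and normal brains 22.3 to 68.4 with a median of 45.15. Gliomas stood clear of both other tissues, and medulloblastoma and normal brain overlapped. Susd5 rose by 3.47 ± 0.27 in glioma relative to normal brain (SE, limma adjusted p = 4.843e-10). The medulloblastoma difference, -0.74 ± 0.24 (limma adjusted p = 0.008914), passed over all arrays and not within the prefix YZ (-0.97, limma adjusted p = 0.096) or within the Rictor+/- arrays (-0.75, limma adjusted p = 0.1939). The other Susd5 probe set gave -3.91 for medulloblastoma minus glioma.

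Rlbp1 encodes a retinaldehyde-binding protein known from the visual cycle of the retinal pigment epithelium and Müller glia. It had the widest spread among the gliomas. B1, B2, B3 and B7 (Rictor+/-) measured 869.1, 420.3, 162.8 and 3028.8, C3 (Rictor-/-) 3267.5 and A4 1027.5, so the highest was 20.1-fold above the lowest. Medulloblastoma ran between 7.0 and 216.0 (median 26.25) and normal brain between 15.8 and 133.9 (median 53). All gliomas exceeded all normal brains, and medulloblastoma and normal brain overlapped. Rlbp1 rose by 4.08 ± 0.59 in glioma (SE, limma adjusted p = 2.346e-06), and its medulloblastoma difference of -0.64 ± 0.51 did not pass (limma adjusted p = 0.2811). The highest medulloblastoma, C4 at 216.0, was also the highest of the 10 for Scrg1 (137.9) and Susd5 (43.6). It was highest too for the oligodendrocyte lineage gene Olig2 (345.1) and the summed oligodendrocyte precursor markers (4697). Tnr and Kctd4 were highest in C1 instead, at 93.6 and 110.9, against 80.9 and 30.6 in C4. The part of oligodendrocyte precursors in the Rlbp1 value of C4 was not tested.

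The promoter windows of Rlbp1 and Tnr are shown because SOX factors such as Sox10 and Sox6 are active in the oligodendrocyte lineage. The Rlbp1 window lies inside the annotated gene (79374865 to 79392250, minus strand), away from its annotated start at 79392250. Capitals again mark E-boxes and SOX motifs.
Rlbp1 (chr7:79386978-79387277, minus strand): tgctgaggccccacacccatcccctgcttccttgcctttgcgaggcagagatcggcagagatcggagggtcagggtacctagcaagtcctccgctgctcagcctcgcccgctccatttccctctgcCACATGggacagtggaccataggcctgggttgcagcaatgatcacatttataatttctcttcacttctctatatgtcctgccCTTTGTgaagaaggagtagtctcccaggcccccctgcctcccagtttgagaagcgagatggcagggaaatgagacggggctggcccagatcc
Tnr (chr1:159523519-159523818, plus strand): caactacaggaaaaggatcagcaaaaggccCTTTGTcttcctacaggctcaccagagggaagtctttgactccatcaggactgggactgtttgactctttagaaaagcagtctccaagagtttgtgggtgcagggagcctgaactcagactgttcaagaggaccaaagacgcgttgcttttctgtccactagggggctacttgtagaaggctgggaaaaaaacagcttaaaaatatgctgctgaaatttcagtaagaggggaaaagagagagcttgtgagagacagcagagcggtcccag
Each of these windows held 1 SOX motif, read on the opposite strand as CTTTGT. The Rlbp1 window also held 1 E-box and the Tnr window 0. The Susd5 window, not printed, held 2 E-boxes and 0 SOX motifs, so a SOX motif was not shared by the 3 glioma genes with a window.

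Set against normal brain, 8 of the 9 genes passed in medulloblastoma and 6 in glioma. In medulloblastoma Insm1, Tbata, Mab21l1 and Cyp11a1 rose and Kctd4, Tnr, Susd5 and Scrg1 fell, against a background in which 32.2% of all genes passed as higher and 32.0% as lower. In glioma Rlbp1, Kctd4, Tnr, Susd5 and Scrg1 rose and Cyp11a1 fell, where 28.4% of all genes passed as higher and 25.5% as lower. Both comparisons share their normal brains, and both tumour types also served to choose the genes. Neither these counts nor the p-values of the 9 genes behind them are therefore independent evidence of a direction. The median difference of the 9 was -0.64 in medulloblastoma and 1.71 in glioma, against 0.01 and 0.05 over all genes tested. By the brightest probe sets, some groups did not overlap normal brain. In medulloblastoma these were Insm1, Tbata and Mab21l1 above it (8.76% of all genes) and Tnr and Scrg1 below it (7.96%). In glioma they were Rlbp1, Susd5 and Scrg1 above it (9.45%) and Cyp11a1 below it (9.23%). The dimmest Tbata probe set did overlap, at 31.8 in medulloblastoma C6 and 59.9 in normal brain C2. For Cyp11a1, Kctd4, Tnr, Susd5 and Scrg1 the tumour types passed on opposite sides of normal brain. For Insm1, Tbata and Mab21l1 only the medulloblastoma difference passed, and for Rlbp1 only the glioma difference. The 7 mature neuron markers Rbfox3, Syt1, Snap25, Camk2a, Gad1, Gad2 and Slc17a7 fell in both tumour types, 7 of 7 in each, with median differences of -3.61 in medulloblastoma and -3.46 in glioma. Their summed intensity was 1061 to 8870 in medulloblastoma and 532 to 4086 in glioma, against 12656.5 to 19191.2 in normal brain, and no value was at 0. The part of neurons in the medulloblastoma falls of Kctd4 and Tnr, and in the other falls from normal brain, was not tested. Each of the 9 genes has a difference between the tumour types of over 4 on the log2 scale, which is the difference they were chosen for.

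**Figure D3:**
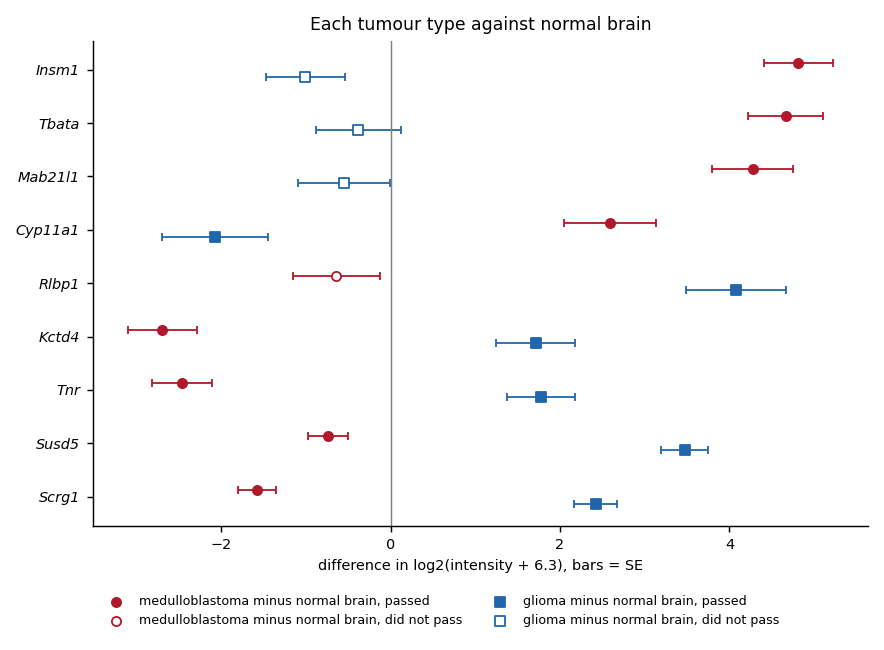
Difference from normal brain in log2(intensity + 6.3) for each gene, in medulloblastoma (red circles) and glioma (blue squares), with the SE of the limma fit as bars. Filled symbols passed an adjusted p of 0.05. Cyp11a1, Kctd4, Tnr, Susd5 and Scrg1 have filled symbols on both sides of 0. All the genes were chosen for the gap between these same tumours.

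Normal brain was not 1 uniform tissue for these genes. Gabra6 was 1740.4, 4153.4 and 4918.3 in the normal brains B2 (Rictor+/-), C5 (Rictor-/-) and Z2 (wild type), against 1.1 to 116.3 in the other 9. Mab21l1 was 144.1, 263.5 and 309.4 in B2, C5 and Z2, against 7.3 to 53.4 in 8 of the others and 146.5 in C2. Insm1 was lower in the same 3 tissues, at 8.6, 7.5 and 4.8 against 24.4 to 287.0. Kctd4 was 87.0, 33.6 and 14.4 there, against 97.5 to 313.0, and Tnr 179.6, 130.6 and 150.8, against 203.3 to 429.2. For Insm1, Kctd4 and Tnr these 3 tissues lay below the other 9 without overlap. The share of all genes that separate the same tissues was not computed, so this is not shown to be particular to these genes. For Mab21l1 they lay above 8 of the other 9, and for the other 5 genes the ranges overlapped. The arrays were singled out after their values were seen, so no test is given, and the part of cerebellar tissue in these levels was not tested. Without B2, C5 and Z2 the calls of the 9 genes in medulloblastoma were the same, and in glioma Insm1 passed as lower than normal brain (-1.37, limma adjusted p = 0.007749).

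**Figure D4:**
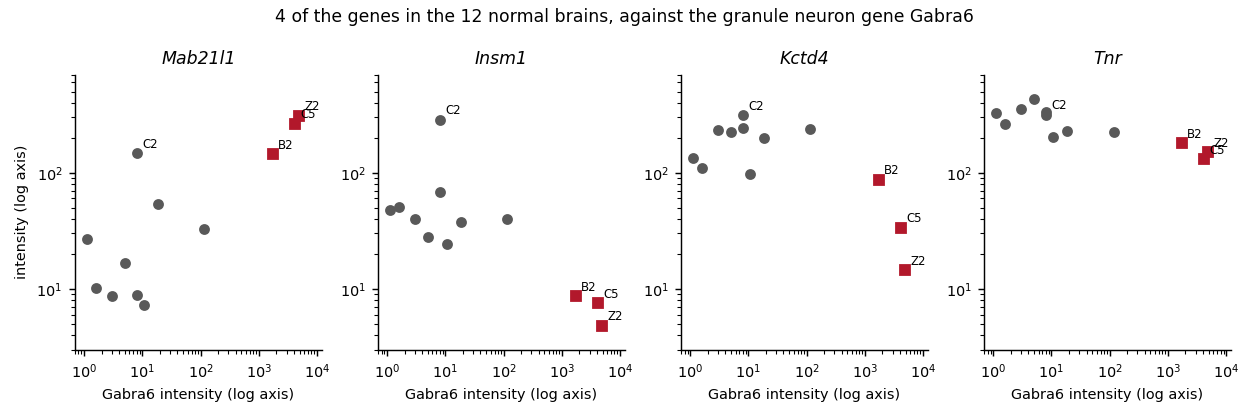
Intensities (log axes) of Mab21l1, Insm1, Kctd4 and Tnr in the 12 normal brains, each plotted against Gabra6 in the same array. Red squares are B2, C5 and Z2, with Gabra6 between 1740.4 and 4918.3; they lie high for Mab21l1 and low for Insm1, Kctd4 and Tnr. C2 is labelled because it was the highest normal brain for Insm1 and Kctd4.

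Rictor genotype was compared within each tissue, a contrast that did not choose the genes. None of the 9 passed in any of 5 comparisons with limma, and none had an unadjusted p under 0.05 in any of them. In Rictor-/- against untargeted medulloblastoma (5 and 3 arrays) 0.00718% of all genes passed and 605 had an unadjusted p under 0.05. The largest difference among the 9 was Cyp11a1, -1.74 ± 1.21 (SE, limma adjusted p = 0.981), with Rictor-/- values of 15.2 to 941.6 overlapping those of 262.2 to 3282.2; without C6 it was -0.91 (limma adjusted p = 0.9593). In Rictor-/- against Rictor+/- medulloblastoma (5 and 2 arrays) 0.00718% of all genes passed and 199 were under 0.05 unadjusted, and the 9 differed by -0.78 (Cyp11a1) to 0.58 (Rlbp1). Rictor-/- against Rictor+/- normal brain (5 each) had 0% of genes passing and 439 under 0.05 unadjusted, with differences between -0.39 ± 0.19 (Scrg1, limma adjusted p = 0.9997) and 0.76 ± 0.85 (Mab21l1). For the 1 Rictor-/- glioma against 4 Rictor+/- gliomas, which borrows the spread of the other groups for its single array, 0.0215% of all genes passed and 637 were under 0.05 unadjusted. Rlbp1 had the largest difference there, 2.31 ± 1.27 (SE, limma adjusted p = 0.9999), its 3267.5 in Rictor-/- glioma standing above 162.8 to 3028.8 in Rictor+/- gliomas. The Rictor effect in medulloblastoma minus that in normal brain passed for 0% of genes, with 264 under 0.05 unadjusted, and lay between -0.94 ± 1.06 (Tbata) and 0.89 ± 1.20 (Rlbp1). With standard errors of this size, differences of about 1 on the log2 scale in several of the genes were not detectable, so the comparisons do not show that Rictor genotype left them alike.

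Genes related to the 9 by role were read from the same fit, from lists made with earlier results of these data known. Their counts stand against shares of all genes of 32.2% higher and 32.0% lower in medulloblastoma and 28.4% higher and 25.5% lower in glioma, relative to normal brain. Of 14 tested proneural and neuroendocrine transcription factors, which like Insm1 act in newly formed neurons, 8 rose and 3 fell in medulloblastoma relative to normal brain, and 1 rose and 6 fell in glioma. The median difference of the list from normal brain was 1.46 in medulloblastoma and -0.92 in glioma. Between the tumours 9 were higher in medulloblastoma (13.6% of all genes). Atoh1, the founding factor of the granule lineage, had a mean of 1019 ± 492.8 in medulloblastoma, 6.92 ± 2.30 in glioma and 21.5 ± 49.0 in normal brain (SD, n = 10, 6 and 12), a rise over normal brain of 5.56 ± 0.55 (SE, limma adjusted p = 2.586e-09). Nhlh2, another helix-loop-helix factor, rose by 5.14 ± 0.45 (SE, limma adjusted p = 3.825e-10). Neurod6, a forebrain neuron gene, did not pass in medulloblastoma (-0.14 ± 0.55, limma adjusted p = 0.8346) and fell in glioma, with a difference of -4.20 ± 0.63 (limma adjusted p = 4.324e-06). Of 8 tested partners of Insm1 in the LSD1 and CoREST corepressor, 7 rose in medulloblastoma and 5 in glioma relative to normal brain, and 0 fell (medians 1.49 and 0.54). Rcor2, a CoREST subunit, had 175 ± 56.1 in medulloblastoma, 31.35 ± 7.71 in glioma and 33.2 ± 11.4 in normal brain (SD), a rise of 2.04 ± 0.19 in medulloblastoma (SE, limma adjusted p = 1.192e-09) with -0.10 ± 0.22 in glioma (limma adjusted p = 0.7146). Hdac1 rose in both, by 1.48 ± 0.13 in medulloblastoma and 1.63 ± 0.15 in glioma (SE, limma adjusted p = 4.678e-10 and 3.378e-09). Within the prefix YZ 5 of the proneural factors rose and 1 fell in medulloblastoma, and within YZ2 2 of them fell and 1 of the corepressor partners rose in glioma.

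Of 14 tested tenascins, lecticans, link proteins and their receptors, 10 rose and 2 fell in glioma relative to normal brain, and 3 rose and 8 fell in medulloblastoma, with medians of 1.26 in glioma and -0.67 in medulloblastoma. Over all genes 28.4% rose and 25.5% fell in glioma and 32.2% rose and 32.0% fell in medulloblastoma. Vcan, the lectican versican, had 2521 ± 1138 in glioma and 159 ± 85.4 in medulloblastoma, against 121 ± 67.3 in normal brain (SD). It rose by 4.20 ± 0.34 in glioma (SE, limma adjusted p = 6.187e-10). Hapln4, a link protein of perineuronal nets, fell in both tumours, with differences of -2.42 ± 0.30 in medulloblastoma and -1.84 ± 0.34 in glioma (SE, limma adjusted p = 8.951e-08 and 5.888e-05). Ptprz1, a receptor phosphatase that binds tenascins, rose by 1.79 ± 0.26 in glioma and had a difference of -0.99 ± 0.22 in medulloblastoma (SE, limma adjusted p = 2.03e-06 and 0.0003975). Hapln2, the other link protein called lower in glioma, did not pass without glioma C3 (-0.97, limma adjusted p = 0.05838). Within the prefix YZ2, with 2 gliomas, 5 of the 14 rose and 0 fell in glioma, and Hapln4 was -1.25 without passing (limma adjusted p = 0.1625). Within the prefix YZ 1 of the 14 rose and 4 fell in medulloblastoma, and Ptprz1 there was -0.95 without passing (limma adjusted p = 0.06964).

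Other genes that share the sushi domain of Susd5 fell in medulloblastoma, 8 of 8 tested (32.0% of all genes). In glioma, where Susd5 rose, 4 of them fell (25.5% of all genes), 1 rose and 3 did not pass. The medians were -1.86 in medulloblastoma and -0.58 in glioma. The mature neuron markers fell in the same arrays, 7 of 7 in each tumour type, and their part was not tested. Sez6l2, a sushi domain protein of neurons, had a difference from normal brain of -3.41 ± 0.50 in glioma (SE, limma adjusted p = 3.151e-06) and -2.42 ± 0.44 in medulloblastoma (limma adjusted p = 3.015e-05). Within YZ2 the glioma difference of Sez6l2 was -1.75 and did not pass (limma adjusted p = 0.06866), and 1 sushi gene fell and 0 rose. Csmd3 had -2.84 ± 0.23 in medulloblastoma (limma adjusted p = 7.144e-11) and 0.36 ± 0.26 in glioma (limma adjusted p = 0.2442), not passing. Of 16 tested KCTD genes other than Kctd4, 4 rose and 6 fell in medulloblastoma and 3 rose and 7 fell in glioma (medians -0.14 and -0.41), shares near those of all genes in medulloblastoma, where 32.2% rose and 32.0% fell, against 28.4% and 25.5% in glioma. Kctd1 fell in both, with -1.62 ± 0.23 in medulloblastoma and -1.73 ± 0.26 in glioma (SE, limma adjusted p = 8.88e-07 and 5.02e-06).

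Genes of the pathways that Cyp11a1 and Rlbp1 belong to passed in both directions. Over all genes 32.2% rose and 32.0% fell in medulloblastoma, and 28.4% rose and 25.5% fell in glioma. Of 15 steroid synthesis genes on the array besides Cyp11a1, 7 were bright enough to test; 1 rose and 1 fell in medulloblastoma and 2 rose and 1 fell in glioma relative to normal brain (medians 0.26 and 0.20). Fdx1, the ferredoxin that carries electrons to the side-chain cleavage enzyme, averaged 300.9 ± 65.2 in medulloblastoma, 181 ± 50.0 in glioma and 242 ± 39.6 in normal brain (SD). It did not pass in medulloblastoma (0.28 ± 0.15, limma adjusted p = 0.09713) and passed as lower in glioma (-0.47 ± 0.17, limma adjusted p = 0.01931). Without medulloblastoma B6 or C5 it passed as higher in medulloblastoma (0.35 each), and without glioma B7 (-0.37), B1 or C3 (-0.41 each) it did not pass in glioma, nor within either prefix. The 2 steroid genes that rose in glioma were 0 without glioma A4 and 1 without glioma B3 or normal brain B2 or B4. Of 12 tested genes of the visual cycle and retinoid handling, which Rlbp1 serves in the retina, 2 rose and 1 fell in medulloblastoma and 2 rose and 4 fell in glioma (medians 0.07 and -0.18). Leaving out single arrays gave 1 to 3 falls in medulloblastoma and 1 to 2 rises in glioma, the changes coming with 9 and 13 of the arrays. Rbp4, the blood carrier of retinol, had a difference of -1.75 ± 0.42 in glioma (SE, limma adjusted p = 0.0009881) and did not pass within YZ (-1.62, limma adjusted p = 0.05772) or YZ2 (-1.69, limma adjusted p = 0.08475). Rdh5, a retinol dehydrogenase of the visual cycle, rose by 1.92 ± 0.31 in medulloblastoma (SE, limma adjusted p = 4.984e-06) and did not pass in glioma (-0.03 ± 0.35, limma adjusted p = 0.9577), where Rlbp1 was high; within YZ its medulloblastoma difference was 1.32 (limma adjusted p = 0.06277).

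**Figure D5:**
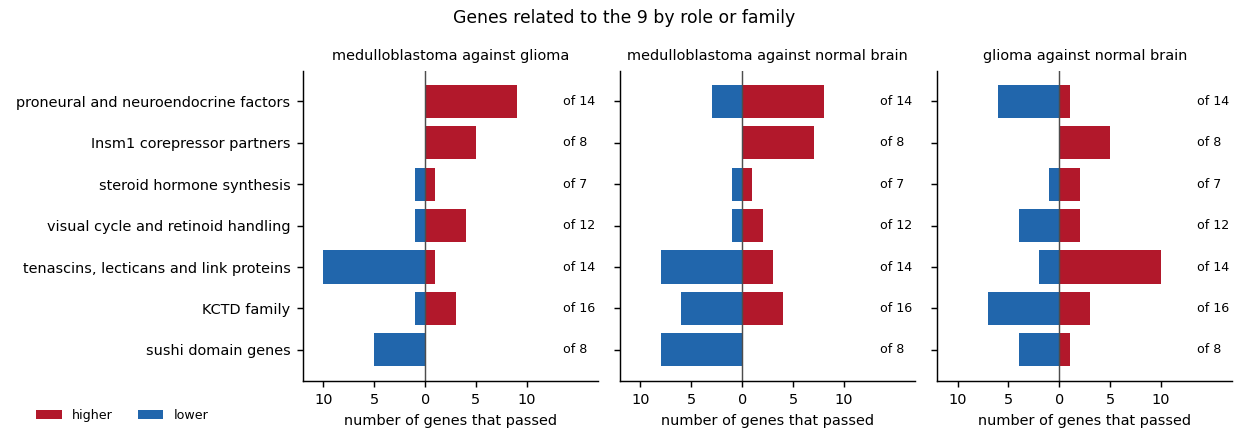
Number of tested genes of 7 lists that passed as higher (red, to the right) or lower (blue, to the left) in medulloblastoma against glioma, medulloblastoma against normal brain and glioma against normal brain, with the number tested at the right of each bar. In glioma against normal brain, 10 of 14 tenascins, lecticans and link proteins passed as higher and 6 of 14 proneural factors as lower.

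The genes with the most similar profiles were found as those with the smallest root mean square difference in log2(intensity + 6.3) over the 28 arrays, after each gene's own mean was subtracted. For Mab21l1 they were Uncx (0.62), Lhx1 (0.69) and Nhlh2 (0.85), and Lhx1 and Uncx encode homeodomain factors. For Tbata they were Hsd11b2 (0.78), which encodes an enzyme that inactivates glucocorticoids, Atoh1 (0.87) and Mycn (0.99), and for Insm1 Sfrp1 (0.999), Cdk6 (1.03) and Hsd11b2 (1.09). Cyp11a1 had its nearest gene, Mbnl3, at 1.05, followed by Sstr2 and Socs2 at 1.07 each. On the glioma side, Scrg1 was nearest to Pik3r1 (0.48), Pllp (0.50) and Tsc22d4 (0.52), and Susd5 to Tmem100 (0.49), Sox6 (0.51) and Sema3d (0.56). Tnr was nearest to Slc35f1 (0.67), Sema5a (0.68) and Arsb (0.71), and Kctd4 to Vxn (0.65), Tnr (0.77) and Slc35f1 (0.86). Rlbp1 was nearest to Gpr17 (0.93), Nkx2-2 and Sox6 (0.94 each), and Gpr17 and Nkx2-2 are genes of the oligodendrocyte lineage. The median over all 13133 genes compared lay between 1.64 for Scrg1 and 2.75 for Insm1. These distances are a description over arrays that fall into 3 tissues.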

How the data were processed

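The study measured gene expression in 28 arrays of medulloblastoma, glioma and normal brain; the series' design text counts more samples, which were not used here. The authors deposited 1 intensity for each of 45101 probe sets and 28 arrays, made with MAS5 and GCOS per the submitters' processing notes, with versions not given in the sources used here. By their values, all arrays had been scaled to a trimmed mean of 100.0. Detection calls were not used, and the number of arrays limits precision.

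The platform annotation gave the names: 34945 had 1 symbol, 932 had several, 9160 had none listed and 64 were controls. The brightest 1-symbol probe set stood for each of 18193 genes, and 13931 genes with a mean above the 30th percentile (3.88) were tested. All 9 members passed this filter, and their 18 probe sets included 0 with several symbols. The deposited intensities were taken to log2 after adding 6.3, which shrinks the log2 differences of dim genes.

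Tissues were compared with limma (lmFit, then eBayes with a trend) in 1 model of tissue plus genotype over all 28 arrays, so the 1 wild type array adds nothing to the tissue differences. Genotypes were compared within the 10 medulloblastomas, within the 12 normal brains, and for glioma and the difference between tissues in a fit of the 10 group means. All p-values are two-sided and adjusted by Benjamini-Hochberg over all genes tested, with a threshold of 0.05. The fit was tested on simulated data. Since nothing says that arrays are separate animals, the p-values reflect only the spread between these samples, possibly technical. The members and lists were chosen with earlier results of these data known. Named genes were the members, up to 4 called genes of each list with the largest difference in each comparison, and the 3 nearest profiles of each member. Hapln2 and Ncan fall outside this rule. They, and the arrays and marker genes named otherwise, were chosen after their values were seen. Promoter windows are RefSeq's, on GRCm38.p6. The software was limma 3.58.1 in R 4.3.3, and in Python 3.11.15 the packages pandas 2.3.3, numpy 2.4.6 and matplotlib 3.10.9. Alternatives were the pseudocount, quantile normalization, the filter, the trend, the probe set, array weights, the title prefix, genotype terms, subsets of arrays, the replicate block and leaving out each array.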

Additional observations from a re-analysis of the deposited data

Results flagged for a closer look

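Of 54 tests for 1 array far from the others of its group, on log2 values of the 9 genes, 6 picked out an array, and chance alone gives about 1 in 20. Tbata was 80.2 in the Rictor-/- medulloblastoma C6, against 438.0 to 840.7 in the other 4. Tbata was 58.6 in the Rictor-/- normal brain C2, against 10.6 to 11.9 in the other 4. Kctd4 was 110.9 in medulloblastoma C1, against 4.7 to 30.6 in the other 9. Susd5 was 30 in the Rictor-/- normal brain C5, against 43.4 to 50.1 in the other 4. Cyp11a1 was 7.4 in the Rictor+/- glioma B7, against 6.0 to 6.2 in the other 3, and 10.4 in glioma C3, against 6.0 to 7.4 in the other 5; both lie near the 25th percentile of the table, 6.3.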

How the results depend on the processing

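In medulloblastoma against normal brain Insm1, Tbata, Mab21l1, Cyp11a1, Tnr and Scrg1 kept their direction and passed in every alternative run, and in glioma against normal brain so did Rlbp1, Tnr, Susd5 and Scrg1. All these runs use tumours that chose the genes, so passing in them is no independent evidence. Leaving out each array in turn left 8 of the 9 genes passing in medulloblastoma and 6 to 7 in glioma, the seventh being Insm1. With the next brightest probe set, which 5 of the genes have above the filter, 5 passed in medulloblastoma and 1 in glioma. Over all genes, 8948 passed in medulloblastoma against normal brain, 7510 in glioma against normal brain and 3959 in medulloblastoma against glioma. Within the title prefix YZ these were 5439 for the first and 1873 for the third, within YZ2 3372 for the second and 1119 for the third, and in a fit of the 10 group means read within the Rictor+/- arrays 5255 for the first and 1163 for the third, all with fewer arrays. Ncan in medulloblastoma against normal brain turned to 0.085 within YZ (limma adjusted p = 0.915) and Hapln2 in glioma against normal brain to 0.29 within YZ2 (limma adjusted p = 0.7635); the cause was not tested. With the letter and number code of the titles as a replicate block, 9 genes passed in medulloblastoma, Rlbp1 among them (-0.99, limma adjusted p = 0.0009467), and 6 in glioma, with 8298 and 6270 over all genes; Insm1 in glioma was then -0.02 (limma adjusted p = 0.9793). The labels do not say whether the codes pair the samples. Deviations of same-coded tumour and normal arrays correlated between -0.0406 and 0.3212, over 0.1 in 5 of 9 pairs. Compared with the 5 Rictor-/- and 5 Rictor+/- normal brains, 5 of 9 tumours correlated best with the normal brain of their own code. Whether the codes pair the samples was not tested, and the main model does not use them. In the genotype comparisons 0 of the 9 genes passed under every alternative run, while over all genes leaving out 1 array gave 0 to 14 calls. A change of sign between settings where neither passed was not counted as a reversal. The comparisons with 1 Rictor-/- glioma or the 2 gliomas of YZ2 rest on few arrays, and intensities near 6.3 carry no order.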
